A study of Mus musculus with 18 samples.

Results

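The core circadian clock genes Per1, Per2, Per3, Cry1, Cry2, Arntl, Clock, Nr1d1, Nr1d2 and Dbp were followed in NIH-3T3 cells, an established line of mouse fibroblasts, treated with the proteasome inhibitor carfilzomib (CFZ). The genes were found by their symbols. All 10 were among the 23420 symbols of the count table, and all 10 were among the 11762 genes with enough reads to be tested. The wild-type (WT) line and a line in which Nrf1, listed as Nfe2l1, had been knocked out with CRISPR/Cas9 (Nrf1KO) were each treated either with the vehicle DMSO or, for 6 or 24 h, with CFZ at 200 nM. Each of these 6 groups had 3 biological replicates, which makes 18 libraries. All cultures were of the immortalized line in DMEM with FBS, and whether the Nrf1KO line is 1 clone is not given in the sources used here.

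The clock of mammalian cells is a loop of transcription and repression. CLOCK and ARNTL (also called BMAL1) bind E-boxes and switch on the Per, Cry, Nr1d and Dbp genes, the PER and CRY proteins then repress CLOCK and ARNTL, and the REV-ERB proteins made from Nr1d1 and Nr1d2 repress Arntl through ROR elements. Fibroblasts run such a clock cell by cell, and in cultures that have not been synchronized the cells drift out of phase, so that a bulk level is an average over phases. The proteasome degrades PER and CRY proteins after they have been marked with ubiquitin. No step to synchronize the cells is described in the sources used here, and the labels give DMSO no time. An effect of CFZ therefore cannot be told apart from a difference in time in culture wherever CFZ is set against DMSO or 24 h against 6 h. Within a time of CFZ the 2 lines are matched by label. Each genotype is a single line, so an effect of the loss of Nrf1 cannot be told apart from other differences between the lines. In bulk RNA, fewer cells that express a gene and less RNA of it per cell cannot be told apart.

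Total counts per library ranged from 8333148 to 23917081, and each of the 18 libraries was closest to another library of its own group. Nfe2l1 lay between 437 and 457 CPM (the read count scaled to library size by the TMM method) in WT DMSO and between 174 and 185 CPM in Nrf1KO DMSO, which was 2.49-fold lower. It was 1.53-fold lower in Nrf1KO than in WT cells at 6 h and 2.76-fold lower at 24 h. Its mean in Nrf1KO cells was 418.8 CPM at 6 h, close to WT DMSO, and 204.4 CPM at 24 h. In WT cells it was 641.9 and 564.6 CPM at these times. The summed level of the fibroblast markers, 9 of 10 of which were tested, ran from 33000 to 35900 CPM in WT DMSO and from 27600 to 33900 CPM in Nrf1KO DMSO. At 24 h of CFZ it ran from 8220 to 8510 CPM in WT and from 11100 to 13100 CPM in Nrf1KO cells. Of 6 epithelial markers, Epcam, Cldn3 and Cldn4 had 0 counts in all 18 libraries, and the sum of the list ran from 142 to 151 CPM in WT DMSO and from 69.6 to 71 CPM in Nrf1KO DMSO. Most of it was Krt14, with means of 141.8 and 58.7 CPM in DMSO and of 128.8 and 85.5 CPM at 24 h of CFZ. The sum at 24 h ran from 127 to 134 CPM in WT and from 83.9 to 87.2 CPM in Nrf1KO cells. Cdh1 went from 6.12 CPM in DMSO to 0.556 CPM at 24 h in WT and from 11.6 to 0.397 CPM in Nrf1KO cells. The sums of 5 endothelial and 5 leukocyte markers did not exceed 1.16 and 2.32 CPM in DMSO and at 6 h, and reached at most 4.33 and 6.03 CPM at 24 h. The part of these marker levels in the clock gene differences was not tested.

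The RefSeq promoters of the clock genes (GRCm38.p6, from 250 bases before to 50 after a start site) were searched on both strands for the letters that clock regulators bind. A promoter was matched for 9 of the 10 genes, all but Per2. The stretches before the start site of 4 of the 5 genes that hold an E-box, its variant or a D-box there are printed, the other being Cry2 with a variant at position -166, and the Arntl site lies just after a start site. Capitals mark an E-box (CACGTG), its variant (CACGTT, read as AACGTG on the other strand), a D-box (TTATGTAA or TTACGTAA), which is bound by DBP, TEF and HLF and by their repressor NFIL3, or a ROR element (TAGGTCA or TGGGTCA).
Per1, chr11:69098699-69098948, plus strand: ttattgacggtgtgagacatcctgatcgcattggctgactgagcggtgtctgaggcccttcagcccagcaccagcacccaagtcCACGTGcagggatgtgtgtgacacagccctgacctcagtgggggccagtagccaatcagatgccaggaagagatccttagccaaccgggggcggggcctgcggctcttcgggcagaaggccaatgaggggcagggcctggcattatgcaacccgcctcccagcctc
Per3, chr4:151044666-151044915, minus strand: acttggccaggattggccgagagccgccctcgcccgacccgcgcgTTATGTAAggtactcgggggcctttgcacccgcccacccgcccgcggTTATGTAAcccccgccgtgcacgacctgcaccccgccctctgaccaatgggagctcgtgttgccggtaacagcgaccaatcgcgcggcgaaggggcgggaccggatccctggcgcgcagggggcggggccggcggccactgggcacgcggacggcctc
Cry1, chr10:85185055-85185304, minus strand: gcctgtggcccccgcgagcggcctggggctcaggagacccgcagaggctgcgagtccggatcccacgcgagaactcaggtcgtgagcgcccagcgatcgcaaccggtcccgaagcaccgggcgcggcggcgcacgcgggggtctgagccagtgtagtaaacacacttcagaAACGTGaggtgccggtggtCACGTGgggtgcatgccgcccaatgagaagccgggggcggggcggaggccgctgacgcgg
Nr1d1, chr11:98775378-98775627, minus strand: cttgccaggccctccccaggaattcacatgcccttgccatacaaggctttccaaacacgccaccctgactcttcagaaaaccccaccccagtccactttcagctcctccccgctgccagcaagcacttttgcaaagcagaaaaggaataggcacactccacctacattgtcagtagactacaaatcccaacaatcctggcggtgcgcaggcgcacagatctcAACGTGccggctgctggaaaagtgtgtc
Arntl, chr7:113207529-113207558, plus strand: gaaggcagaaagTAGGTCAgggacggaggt

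The E-box was found in the windows of Per1 and Cry1 and in 7.15% of all 32817 promoters of this length. The variant was found in those of Cry1, Cry2 and Nr1d1 and in 4.69% of all promoters. Per3 was the 1 clock gene with a D-box, which it held at positions -205 and -158 from the start site, and 1.05% of all promoters held one. A ROR element was found in 1 of the Arntl windows and in 6.46% of all promoters, and the CRE (TGACGTCA, 1.79% of all promoters) was found in none of the clock gene windows. The antioxidant response element, the site of Nrf1 and its relatives, was searched as TGACNNNGC and is not capitalized above. It was found in the windows of Per1, Cry1, Cry2 and Nr1d2, and in 12.4% of all promoters. The heat shock half-site pair (GAANNTTC or TTCNNGAA, 15.1% of all promoters) and the ATF4-C/EBP composite site (TGATGNAAT, 0.966%) were found in none of them. The windows of Dbp and Clock held none of these letters, which says nothing of sites elsewhere in the genes.

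Nearly every clock gene passed the test in each comparison with CFZ, in both directions, in cells where most tested genes did so too. A gene was called higher or lower at a Benjamini-Hochberg adjusted p under 0.05 over all 11762 genes, with no minimum fold change. In WT cells at 6 h of CFZ, 4 clock genes were higher and 5 lower than in DMSO, while 35.6% of all genes tested were higher and 36.2% lower. At 24 h in WT cells 7 were higher and 3 lower, beside 43.2% and 40.5% of all genes. Between 6 and 24 h in WT cells 5 rose and 4 fell, beside 36.9% and 35.4%. In Nrf1KO cells at 6 h 5 were higher and 5 lower, with 34.5% and 35% of all genes in those directions. The same counts of 5 and 5 were obtained in Nrf1KO cells at 24 h as compared with DMSO (all genes, 44.4% and 41.1%) and at 24 h as compared with 6 h (38.7% and 38.3%). With upper-quartile scaling or scaling by library size alone, 3 were called higher in Nrf1KO cells at 6 h in place of 5, since Per2 and Nr1d2 missed the threshold.

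Across WT and Nrf1KO cells the median absolute log2 change of the 10 genes was 0.47 and 0.37 at 6 h, as compared with 0.33 and 0.30 over all genes tested. At 24 h it was 0.67 and 0.76 for the clock genes and 0.56 and 0.58 for all genes. The highest group mean of Dbp was 60.7 times its lowest, whereas this ratio was 5.84 for Per3, 3.16 for Nr1d1 and between 1.56 and 2.63 for the other genes.

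**Figure D1:**
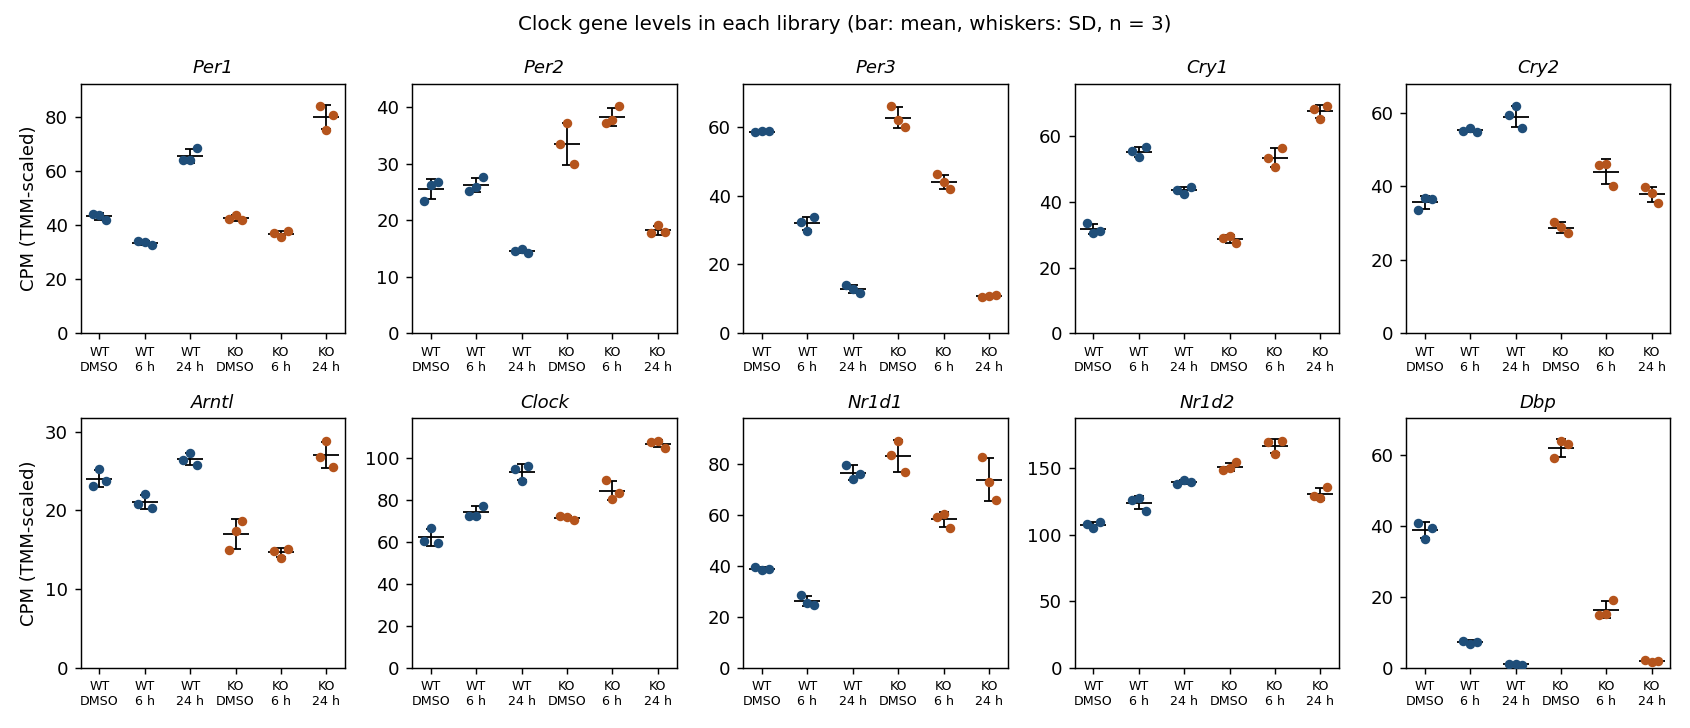
Level of each clock gene in TMM-scaled CPM (linear axis from 0) in the 18 libraries, with WT in blue and Nrf1KO (KO) in orange, for DMSO and for 6 h and 24 h of CFZ. Points are libraries, and the bar and whiskers are the mean and SD of 3. Dbp and Per3 fell to their lowest levels at 24 h in both lines, and Nr1d1 at DMSO was about 39 CPM in WT and 83 CPM in Nrf1KO cells.

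Dbp, which encodes a D-box activator and is a direct output of CLOCK and ARNTL, showed the largest fall of the 10 genes in all 4 comparisons of CFZ with DMSO. In WT DMSO its 3 libraries stood at 40.7, 36.2 and 39.4 CPM, at 6 h of CFZ at 7.58, 6.70 and 7.38 CPM, and at 24 h at 1.12, 1.14 and 0.806 CPM. In Nrf1KO cells they stood at 59.0, 63.8 and 63.0 CPM in DMSO, at 14.8, 15.1 and 19.1 CPM at 6 h, and at 2.32, 1.66 and 1.97 CPM at 24 h. Within each line the 3 groups did not overlap, and at every treatment all Nrf1KO libraries lay above all WT libraries. Dbp was 5.38-fold lower at 6 h (log2 change -2.43 ± 0.086 SE, adjusted p = 9.8e-22) and 38.2-fold lower at 24 h (-5.26 ± 0.13, 1.7e-26) in WT cells. In Nrf1KO cells it was 3.88-fold lower at 6 h (-1.96 ± 0.069, 1.5e-21) and 31.5-fold lower at 24 h (-4.98 ± 0.098, 3.7e-29). Among the 11762 genes ordered by log2 change from the lowest, Dbp was number 24 in WT and number 25 in Nrf1KO cells at 24 h, and number 53 and number 84 at 6 h. These 24 h levels rest on 11 to 19 reads per library in WT and 30 to 33 in Nrf1KO cells. The fall continued after 6 h, by 2.83 on the log2 scale between 6 and 24 h in WT and by 3.02 in Nrf1KO cells.

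Dbp lies on chromosome 7 (45705088 to 45710203, plus strand, GENCODE M21 on GRCm38), and 539 bases, or 18% of its exonic length, overlap exons of Sphk2 on the opposite strand. Whether reads were counted by strand is not given in the sources used here, so reads of the pair could be exchanged. Sphk2, a sphingosine kinase, went the other way: its mean level was 23.4 CPM in WT DMSO, 38.3 CPM at 6 h and 47.3 CPM at 24 h, and 20.8, 41.7 and 60.9 CPM in Nrf1KO cells in the same order.

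Per3, whose protein is the least essential of the PER repressors for rhythms, had the next largest fall. It stood at 58.5, 58.8 and 58.8 CPM in WT DMSO, at 32.2, 29.8 and 33.7 CPM at 6 h and at 13.9, 12.8 and 11.5 CPM at 24 h. The Nrf1KO libraries stood at 66.1, 62.1 and 60.1 CPM in DMSO, at 46.2, 43.9 and 42.0 CPM at 6 h and at 10.6, 10.7 and 11.04 CPM at 24 h. The groups within a line did not overlap. At 24 h Per3 was 4.66-fold lower than in DMSO in WT cells (log2 change -2.22 ± 0.063, adjusted p = 9.7e-25) and 5.81-fold lower in Nrf1KO cells (-2.54 ± 0.062, 1.5e-26). At 6 h the falls were 1.84-fold (-0.88 ± 0.053, 1.2e-15) and 1.41-fold (-0.50 ± 0.051, 3.5e-10). Per3 fell less in Nrf1KO than in WT cells at 6 h and more at 24 h, with interactions of 0.38 ± 0.074 (adjusted p = 0.00011) and -0.32 ± 0.099 (0.0065), where the interaction is the log2 change with CFZ in Nrf1KO minus that in WT cells. This is the clock gene whose printed promoter stretch holds the pair of D-boxes. Whether these sites had a part in its fall was not tested.

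Per1 and Per2, the repressors that also act as immediate input genes of the clock, went opposite ways at 24 h. Per1 stood at 44.0, 44.0 and 41.9 CPM in WT DMSO, at 34.0, 33.7 and 32.6 CPM at 6 h and at 64.2, 64.2 and 68.9 CPM at 24 h. In Nrf1KO cells its libraries stood at 42.5, 43.9 and 41.8 CPM, then at 37.1, 35.8 and 37.9 CPM, then at 84.2, 75.4 and 80.8 CPM. In both lines Per1 was thus lowest at 6 h and highest at 24 h with no overlap of groups. As compared with DMSO it was lower at 6 h by 1.3-fold in WT (log2 change -0.37 ± 0.053, adjusted p = 2.2e-07) and 1.16-fold in Nrf1KO cells (-0.21 ± 0.053, 0.00082). It was 1.52-fold higher at 24 h in WT (0.60 ± 0.047, 2.4e-13) and 1.87-fold higher in Nrf1KO cells (0.91 ± 0.044, 1.6e-18), and the interaction of 0.30 ± 0.065 at 24 h passed the test (0.00017).

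Per2 did not pass the test at 6 h in WT cells, with 23.5, 26.2 and 26.8 CPM in DMSO and 25.2, 25.9 and 27.6 CPM at 6 h (log2 change 0.05 ± 0.072, adjusted p = 0.56). At 24 h it stood at 14.5, 14.9 and 14.3 CPM, 1.74-fold below DMSO (-0.80 ± 0.081, 1.3e-10). In Nrf1KO cells it stood at 33.4, 37.3 and 29.9 CPM in DMSO, at 37.1, 37.7 and 40.2 CPM at 6 h and at 17.7, 19.1 and 17.9 CPM at 24 h. There the DMSO and 6 h libraries overlapped, while all 24 h libraries lay below both. The rise at 6 h in Nrf1KO cells was 1.15-fold (0.20 ± 0.066, 0.0071). DESeq2 did not call it (0.18, adjusted p = 0.06), and without replicate 3 of Nrf1KO DMSO it was 0.11 on the log2 scale and missed the threshold (0.16). The fall at 24 h was 1.81-fold (-0.86 ± 0.071, 1e-12), and neither the 6 h interaction (0.15 ± 0.098, 0.22) nor the 24 h interaction (-0.06 ± 0.11, 0.68) passed the test.

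Cry1, the stronger of the CRY repressors, rose with CFZ in both lines but took different courses after 6 h. It stood at 33.6, 30.6 and 31.1 CPM in WT DMSO, at 55.6, 53.6 and 56.7 CPM at 6 h and at 43.5, 42.6 and 44.6 CPM at 24 h. The libraries of Nrf1KO cells stood at 29.0, 29.7 and 27.3 CPM in DMSO, at 53.4, 50.7 and 56.5 CPM at 6 h and at 68.4, 65.2 and 69.2 CPM at 24 h. All CFZ libraries lay above all DMSO libraries, and between 6 and 24 h the level went down in WT and up in Nrf1KO cells without overlap. The rise at 6 h was 1.73-fold in WT (log2 change 0.79 ± 0.051, adjusted p = 6e-15) and 1.87-fold in Nrf1KO cells (0.90 ± 0.053, 9.8e-16). At 24 h it was 1.37-fold (0.45 ± 0.053, 3.3e-09) and 2.37-fold above DMSO (1.24 ± 0.049, 3.9e-21). From 6 to 24 h Cry1 changed by -0.34 ± 0.05 in WT and 0.34 ± 0.048 in Nrf1KO cells on the log2 scale, and the interaction at 24 h was 0.79 ± 0.072 (5.4e-11).

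Cry2, the other CRY repressor, rose as well, and stood lower in Nrf1KO than in WT cells at each treatment. In WT cells it stood at 33.6, 36.9 and 36.4 CPM in DMSO, at 54.9, 55.8 and 54.8 CPM at 6 h and at 59.3, 61.8 and 55.9 CPM at 24 h. In Nrf1KO cells the values were 30.1, 28.8 and 27.2 CPM, then 45.6, 46.1 and 40.0 CPM, then 39.6, 38.2 and 35.5 CPM. No WT library overlapped the Nrf1KO libraries of the same treatment. Cry2 was 1.55-fold higher than in DMSO at 6 h in each line (log2 change 0.63 ± 0.055 in WT and 0.64 ± 0.061 in Nrf1KO cells, with an interaction of 0.00 ± 0.081). At 24 h it was 1.66-fold higher in WT (0.73 ± 0.054, adjusted p = 8.8e-14) and 1.32-fold higher in Nrf1KO cells (0.40 ± 0.059, 2e-07), and the interaction was -0.33 ± 0.08 (0.00081). An untested transcript on the opposite strand, D930015M05Rik, covers 4.67% of the exonic length of Cry2 and had 0 counts in all libraries.

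**Figure D2:**
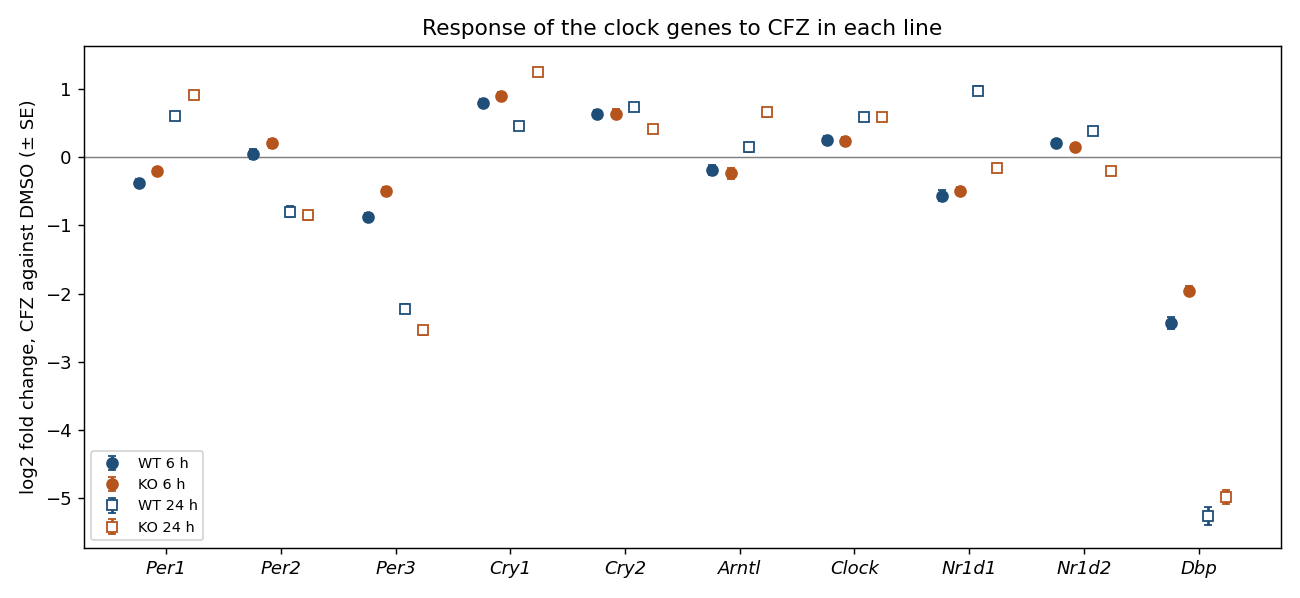
Log2 fold change of each clock gene with CFZ as compared with DMSO of the same line, with its standard error, at 6 h (filled circles) and 24 h (open squares) in WT (blue) and Nrf1KO cells (KO, orange). Dbp lay near -5 at 24 h in both lines, while Nr1d1 at 24 h was 0.97 in WT and -0.16 in Nrf1KO cells.

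Of the activators, Clock rose at both times in both lines. It stood at 60.4, 66.6 and 59.6 CPM in WT DMSO, at 72.6, 72.4 and 77.4 CPM at 6 h and at 95.0, 89.0 and 96.2 CPM at 24 h. In Nrf1KO cells it stood at 72.5, 71.9 and 70.7 CPM, at 89.4, 80.5 and 83.6 CPM, and at 107.8, 108.2 and 105 CPM in the same order. Each step in time was without overlap. The log2 change at 6 h was 0.25 ± 0.048 in WT (adjusted p = 2e-05) and 0.24 ± 0.047 in Nrf1KO cells (3.4e-05). The log2 change at 24 h was 0.58 ± 0.046 in WT (adjusted p = 3.2e-13) and 0.58 ± 0.043 in Nrf1KO cells (8.8e-14), and the interactions were -0.01 ± 0.066 at 6 h and -0.01 ± 0.063 at 24 h.

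Arntl, the partner of CLOCK and the target of the REV-ERB repressors, stood lower in Nrf1KO than in WT cells in DMSO and at 6 h but not at 24 h. In WT cells its libraries stood at 23.1, 25.2 and 23.7 CPM in DMSO, at 20.8, 22.1 and 20.3 CPM at 6 h and at 26.4, 27.3 and 25.8 CPM at 24 h. In Nrf1KO cells they stood at 14.9, 17.4 and 18.7 CPM in DMSO, at 14.8, 13.98 and 15.1 CPM at 6 h and at 26.8, 28.8 and 25.5 CPM at 24 h. The 24 h libraries of the lines overlapped, and so did DMSO and 6 h in Nrf1KO cells. At 24 h Arntl was 1.57-fold above DMSO in Nrf1KO cells (log2 change 0.65 ± 0.068, adjusted p = 2.3e-10), whereas in WT cells the change of 0.14 ± 0.067 was at the threshold (0.047). The WT call at 24 h was lost with DESeq2 (0.21), upper-quartile scaling (0.93), library size alone (0.60), no expression filter (0.28), a mean count of at least 10 (0.052) and a fit of the compared groups alone (0.091), and in 12 of the 18 fits that each left out 1 library, where the change ran from 0.08 to 0.15. The small falls at 6 h, of -0.19 ± 0.071 in WT (0.019) and -0.24 ± 0.084 in Nrf1KO cells (0.012), were lost without some single libraries: WT DMSO replicate 2 (-0.15, 0.089) or WT 6 h replicate 1 (-0.17, 0.067) or 3 (-0.15, 0.091), and Nrf1KO DMSO replicate 3 (-0.15, 0.15) or Nrf1KO 6 h replicate 2 (-0.20, 0.067). The interaction at 24 h was 0.51 ± 0.095 (3.1e-05). Over 33 bases, or 0.439% of its exonic length, Arntl overlaps Gm45355 on the opposite strand, a transcript not analysed here.

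Nr1d1, which encodes REV-ERB alpha, had the largest interaction of genotype and CFZ of the 10 genes. It stood at 39.6, 38.4 and 38.6 CPM in WT DMSO, at 28.7, 25.5 and 24.8 CPM at 6 h and at 79.7, 74.2 and 76.1 CPM at 24 h. The Nrf1KO levels were 83.7, 89.0 and 76.7 CPM in DMSO, 59.4, 60.5 and 55.0 CPM at 6 h and 82.8, 73.0 and 66.0 CPM at 24 h. The lines did not overlap in DMSO or at 6 h, and overlapped at 24 h. At 6 h it fell in WT (log2 change -0.56 ± 0.078, adjusted p = 1.4e-07) and Nrf1KO cells (-0.50 ± 0.062, 2.6e-08), with an interaction of 0.07 ± 0.1 (0.63). At 24 h Nr1d1 was 1.96-fold above DMSO in WT cells (0.97 ± 0.065, 5e-15), whereas in Nrf1KO cells it was -0.16 ± 0.057 from DMSO (0.009) with overlapping libraries. The latter missed the threshold without replicate 2 of Nrf1KO DMSO (-0.12, 0.079), and the interaction was -1.14 ± 0.086 (8.4e-13).

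The last exons of Nr1d1 overlap those of Thra, a thyroid hormone receptor gene on the opposite strand, over 263 bases or 8.55% of the exonic length of Nr1d1. Thra fell with CFZ in both lines, from a mean of 105.3 CPM in WT DMSO to 47.3 CPM at 6 h and 19.98 CPM at 24 h, and from 92.1 to 48.4 and 19.99 CPM in Nrf1KO cells. Both genes thus fell at 6 h in both lines, while from 6 to 24 h the mean of Thra went down and that of Nr1d1 went up. Whether reads of the pair were exchanged was not tested.

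Nr1d2, which encodes REV-ERB beta, had the highest mean level per length of the clock genes in WT DMSO and at 6 h in both lines, and like Nr1d1 it stood higher in Nrf1KO than in WT cells in DMSO and at 6 h. It stood at 108, 105 and 109 CPM in WT DMSO, at 126, 127 and 118 CPM at 6 h and at 138, 141 and 139 CPM at 24 h. In Nrf1KO cells it stood at 148, 150.5 and 154 CPM in DMSO, at 169.5, 161 and 170.4 CPM at 6 h and at 129, 127 and 136 CPM at 24 h. In WT cells the groups rose in steps without overlap, while in Nrf1KO cells the 24 h libraries lay below all others. The log2 change at 24 h was 0.38 ± 0.037 in WT (adjusted p = 6.4e-11) and -0.21 ± 0.036 in Nrf1KO cells (3.3e-06), with an interaction of -0.59 ± 0.052 (2.2e-11). The rises at 6 h of 0.21 ± 0.038 in WT (1.3e-05) and 0.14 ± 0.036 in Nrf1KO cells (0.00099) were 0.08 (0.069) and 0.03 (0.50) when scaled by library size alone.

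The knock-out was next set against WT at the same treatment. The labelled times of the lines match for CFZ, and DMSO has no labelled time. In DMSO, 5 clock genes were higher and 3 lower in Nrf1KO than in WT cells, beside 25.7% and 29.1% of all genes tested. At 6 h of CFZ 7 were higher and 2 lower, beside 30.5% and 30.8%, and at 24 h 5 were higher and 3 lower, beside 35.6% and 36.4%. With DESeq2 or upper-quartile scaling 1 clock gene was lower at 24 h in place of 3, since Per3 and Nr1d2 missed the threshold. It was also 1 when any of WT 24 h replicate 2, Nrf1KO 24 h replicate 1 or Nrf1KO 24 h replicate 2 was left out.

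In DMSO the genes of the REV-ERB loop and Dbp were higher in Nrf1KO cells and Arntl was lower. Nr1d1 was 2.12-fold (log2 difference 1.09 ± 0.062, adjusted p = 1.3e-15), Dbp 1.6-fold (0.68 ± 0.053, 3e-12), Nr1d2 1.41-fold (0.50 ± 0.036, 5.2e-13), Per2 1.3-fold (0.38 ± 0.065, 9.4e-06) and Clock 1.15-fold higher (0.20 ± 0.046, 0.00036). Arntl was 1.39-fold lower (-0.48 ± 0.069, 6.1e-07) and Cry2 1.25-fold lower (-0.32 ± 0.059, 3.1e-05). Cry1 was 1.12-fold lower (-0.16 ± 0.054, 0.013), a call lost with DESeq2 (0.07), with library size alone (0.083) and without WT DMSO replicate 1 (-0.10, 0.20) or Nrf1KO DMSO replicate 3 (-0.12, 0.12). Per1 (-0.02 ± 0.048, 0.70) and Per3 (0.09 ± 0.045, 0.088) did not pass. Per3 was called higher with library size alone (0.0098), in a fit of the compared groups alone (0.041), and in 7 of the 18 fits that each left out 1 library (any library of WT 6 h or of Nrf1KO 24 h, or Nrf1KO DMSO replicate 3, 0.036 to 0.047).

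At 6 h of CFZ the same REV-ERB genes, Dbp, Per2 and Clock were higher in Nrf1KO cells, and Per3 joined them. Nr1d1 was 2.23-fold higher (1.16 ± 0.077, adjusted p = 3.3e-14), Dbp 2.22-fold (1.15 ± 0.11, 1.1e-10), Per2 1.45-fold (0.54 ± 0.072, 1.3e-07), Per3 1.39-fold (0.47 ± 0.059, 3.2e-08) and Nr1d2 1.34-fold (0.43 ± 0.038, 2.4e-11). Arntl was 1.44-fold lower (-0.53 ± 0.085, 2.7e-06) and Cry2 1.24-fold lower (-0.32 ± 0.057, 1.8e-05). Clock was 1.14-fold higher (0.19 ± 0.048, 0.001), and Cry1 (-0.05 ± 0.05, 0.36) did not pass. Per1 was 1.1-fold higher (0.14 ± 0.058, 0.04), which was not called with DESeq2 (0.064) or without expression filter (0.094). Leaving out WT 6 h replicate 1 (0.069), 2 (0.079) or 3 (0.15), Nrf1KO 6 h replicate 1 (0.10) or 3 (0.099), WT DMSO replicate 1 (0.058) or Nrf1KO 24 h replicate 3 (0.056) also ended the call of Per1.

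At 24 h the order changed. Dbp stayed 1.94-fold higher in Nrf1KO cells (0.95 ± 0.26, adjusted p = 0.0018), at 1.66 to 2.32 CPM as compared with 0.806 to 1.14 CPM. Cry1 was 1.55-fold higher (0.63 ± 0.048, 2.6e-13) and Cry2 1.56-fold lower (-0.64 ± 0.055, 4.3e-12), so the CRY genes moved apart. Per2 (0.33 ± 0.087, 0.0014), Per1 (0.28 ± 0.044, 1.2e-06) and Clock (0.20 ± 0.043, 0.00016) were higher. Per3 (-0.23 ± 0.088, 0.022) and Nr1d2 (-0.09 ± 0.037, 0.023) were lower by the test. Of the 18 fits that each left out 1 library, 4 lost the call of Per3 and 7 that of Nr1d2. Nr1d2 was also not called without expression filter (0.11) or in a fit of the compared groups alone (0.080). Nr1d1 (-0.05 ± 0.06, 0.45) and Arntl (0.03 ± 0.066, 0.69) did not pass the test, and their libraries overlapped between the lines.

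**Figure D3:**
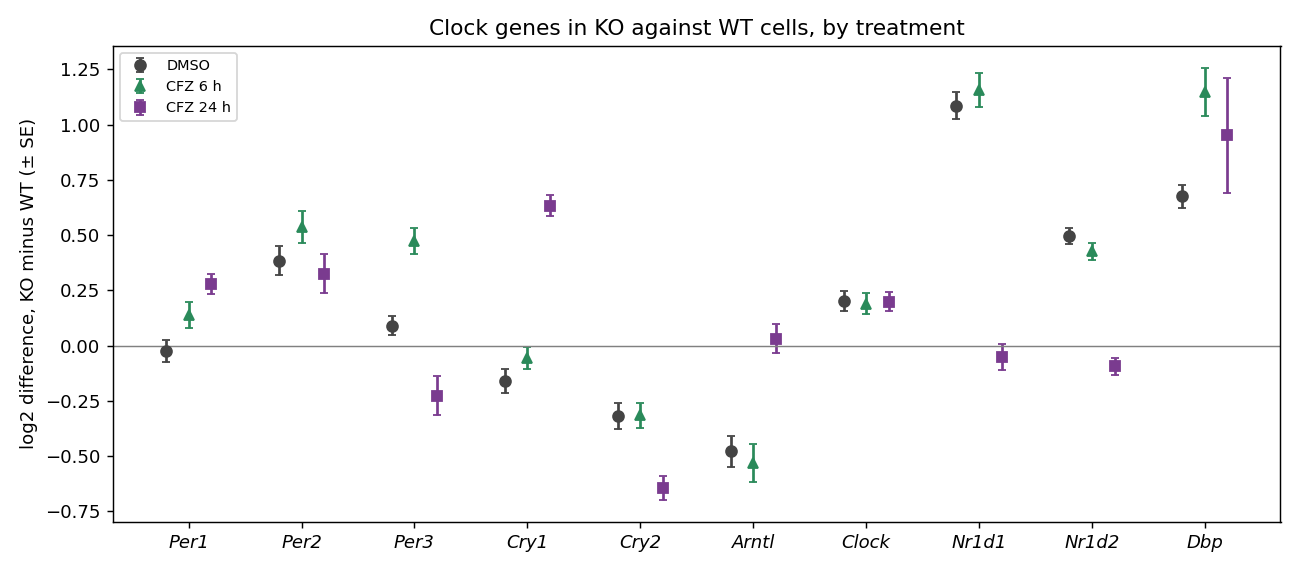
Log2 difference of each clock gene between Nrf1KO and WT cells, with its standard error, in DMSO (grey circles), at 6 h of CFZ (green triangles) and at 24 h of CFZ (purple squares). Nr1d1 was 1.09 and 1.16 in DMSO and at 6 h and -0.05 at 24 h, and Cry1 and Cry2 stood at 0.63 and -0.64 at 24 h.

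The change from DMSO to CFZ was compared between the lines by the interaction. More clock genes, and more of all genes, were called in it at 24 h than at 6 h. It takes in the DMSO of each line, which has no labelled time. A difference between the lines in the response to CFZ therefore cannot be told apart from one in time in culture. In the interaction at 6 h 2 clock genes, Per3 and Dbp, were higher and 0 lower by edgeR's quasi-likelihood test, beside 19.8% and 18.4% of all genes. At an unadjusted p under 0.05 these counts were 3 and 0, and with DESeq2 2 and 0. At 24 h 3 were higher (Cry1, Arntl and Per1) and 4 lower (Nr1d1, Nr1d2, Cry2 and Per3), beside 29.7% and 30% of all genes. Dbp had interactions of 0.47 ± 0.12 at the earlier (adjusted p = 0.0026) and 0.28 ± 0.27 at the later time (0.39), with the few reads given above behind the latter. Not called at 6 h were also Per1 (0.16 ± 0.075, adjusted p = 0.09), Cry1 (0.11 ± 0.074, 0.28), Nr1d2 (-0.07 ± 0.052, 0.33) and Arntl (-0.05 ± 0.11, 0.75). Per1 was called with upper-quartile scaling (0.20, 0.035), and Per2 without Nrf1KO DMSO replicate 2 (0.24, 0.043).

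Between 6 and 24 h of CFZ, Dbp, Per3 and Per2 fell and Per1, Arntl, Clock and Nr1d1 rose in both lines. In WT cells the log2 change from 6 to 24 h was -1.34 ± 0.073 for Per3, -0.85 ± 0.084 for Per2, 0.98 ± 0.051 for Per1, 0.33 ± 0.072 for Arntl, 0.33 ± 0.046 for Clock and 1.54 ± 0.072 for Nr1d1. In Nrf1KO cells these were -2.04 ± 0.07, -1.06 ± 0.075, 1.12 ± 0.05, 0.89 ± 0.079, 0.34 ± 0.045 and 0.33 ± 0.064 in the same order. Nr1d2 was called in opposite directions, at 0.17 ± 0.038 in WT and -0.35 ± 0.037 in Nrf1KO cells, as was Cry1 with the values given above. Cry2 fell in Nrf1KO cells (-0.23 ± 0.059) and was 0.10 ± 0.053 in WT cells (adjusted p = 0.1), a change that passed with library size alone (0.04) and without WT 24 h replicate 3 (0.037).

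Compared per kilobase of merged exon, the clock genes of WT DMSO spanned from 3.19 ± 0.14 CPM per kb for Arntl to 19.8 ± 0.44 for Nr1d2. Dbp (13 ± 0.78) and Nr1d1 (12.6 ± 0.2) followed Nr1d2 and did not differ beyond their SD, and then came Cry1 (9.52 ± 0.48), Per1 (7.69 ± 0.22), Per3 (6.11 ± 0.019) and Cry2 (5.64 ± 0.28). Clock (4.53 ± 0.28) and Per2 (4.35 ± 0.3) overlapped. At 24 h of CFZ in WT cells Dbp was last at 0.341 ± 0.062 CPM per kb, and Per3 next to last at 1.33 ± 0.12. In Nrf1KO DMSO Nr1d2 (27.9 ± 0.57) and Nr1d1 (27.0 ± 2.0) led and lay within their SD of each other, as they did at 24 h in WT (25.8 ± 0.29 and 24.9 ± 0.9) and Nrf1KO cells (24.2 ± 0.82 and 24 ± 2.7).

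Of 11 other transcription factors and repressors of the clock, 9 were tested. At 24 h 1 rose and 7 fell in WT cells (43.2% and 40.5% of all genes), with a median log2 change of -0.42 (0.02 over all genes), and 3 rose and 5 fell in Nrf1KO cells (44.4% and 41.1%), with a median of -0.73 (0.03). At 6 h 2 rose and 4 fell in WT (35.6% and 36.2% of all genes), and 3 rose and 2 fell in Nrf1KO cells (34.5% and 35%). Rorb, which was not tested, had 0 counts in every library. Among the D-box factors, Hlf fell with Dbp at 24 h (log2 change -1.73 ± 0.25 in WT and -1.65 ± 0.16 in Nrf1KO cells), from means of 2.19 and 5.09 CPM in DMSO to 0.650 and 1.60 CPM. The 24 h levels of Hlf rest on 6 to 12 reads per library in WT and 22 to 27 in Nrf1KO cells. Tef, the most abundant of the D-box factors, fell at 6 h in WT (-0.50 ± 0.034) and Nrf1KO cells (-0.48 ± 0.034). At 24 h Tef was -0.07 ± 0.033 from DMSO in WT (adjusted p = 0.046) and -0.73 ± 0.033 in Nrf1KO cells.

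Nfil3, the repressor at D-boxes and itself a target of REV-ERB, had the largest interaction of genotype and CFZ among these genes. Its libraries ran from 23.6 to 26.2 CPM in WT DMSO and from 10.1 to 11.5 CPM in Nrf1KO DMSO, the reverse of the order of Nr1d1 in DMSO. With CFZ Nfil3 ran from 33.9 to 37.9 CPM at 6 h and from 17.8 to 18.8 CPM at 24 h in WT cells. In Nrf1KO cells it ran from 33.8 to 34.8 CPM and from 37.5 to 39.1 CPM. At 6 h the lines thus overlapped in Nfil3 but not in Nr1d1, and at 24 h they overlapped in Nr1d1 but not in Nfil3. A link between these genes was not tested. Nfil3 was 2.27-fold lower in Nrf1KO DMSO than in WT DMSO (log2 difference -1.19 ± 0.068) and 2.09-fold higher at 24 h (1.07 ± 0.061), and the interaction at 24 h was 2.25 ± 0.091 (adjusted p = 1.6e-19).

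**Figure D4:**
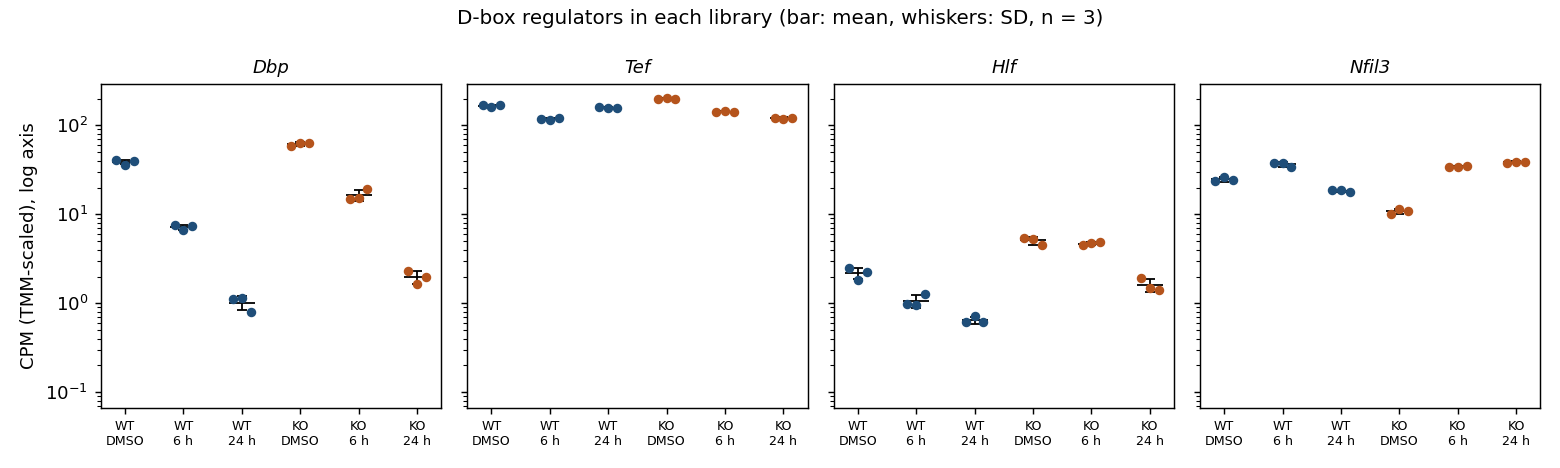
TMM-scaled CPM of the D-box activators Dbp, Tef and Hlf and the D-box repressor Nfil3 in the 18 libraries on a shared log axis, with WT in blue and Nrf1KO (KO) in orange. Points are libraries, and the bar and whiskers are the mean and SD of 3. Dbp went down in steps in both lines, while Nfil3 at 24 h stood at 18.4 CPM in WT and 38.5 CPM in Nrf1KO cells.

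Of the remaining factors, Bhlhe40, a repressor at E-boxes, fell at 24 h in WT (-1.19 ± 0.048) and Nrf1KO cells (-0.77 ± 0.042), and its relative Bhlhe41 fell by 0.38 and 0.81 on the log2 scale. Ciart, listed as Gm129, a repressor of CLOCK and ARNTL, rose at 6 h in WT (1.11 ± 0.16) and Nrf1KO cells (0.98 ± 0.15). Rora, which activates Arntl at ROR elements, was -0.11 ± 0.12 from DMSO in WT at 24 h (adjusted p = 0.42) and 0.63 ± 0.1 in Nrf1KO cells (1.8e-06), with an interaction of 0.74 ± 0.16 (0.00022). Npas2, which can stand in for Clock, fell at 24 h in WT (-0.42 ± 0.13) and Nrf1KO cells (-0.28 ± 0.11). Arntl2, a relative of Arntl, fell in WT cells (-1.25 ± 0.29) from 1.36 to 0.595 CPM, on at most 27 reads per library.

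Of 11 genes for kinases, ubiquitin ligases and deubiquitinases that act on clock proteins 10 were tested, of which 7 rose and 1 fell at 6 h in WT cells (35.6% and 36.2% of all genes) and 8 rose and 1 fell in Nrf1KO cells (34.5% and 35%). At 24 h 6 rose and 2 fell in WT (43.2% and 40.5%), and 6 rose and 1 fell in Nrf1KO cells (44.4% and 41.1%). The median log2 changes were 0.14 and 0.17 at 6 h and 0.34 and 0.24 at 24 h in WT and Nrf1KO cells. The kinase gene Csnk1e was the 1 gene of the list called with a log2 change of at least 1, at 0.90 ± 0.047 in WT and 1.40 ± 0.044 in Nrf1KO cells at 24 h.

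All 10 listed input genes of the clock, targets of CREB, SRF or the glucocorticoid receptor, were tested. At 6 h 7 rose and 1 fell in WT (35.6% and 36.2% of all genes), and 8 rose and 1 fell in Nrf1KO cells (34.5% and 35%). At 24 h 4 rose and 5 fell in WT (43.2% and 40.5%), and 7 rose and 3 fell in Nrf1KO cells (44.4% and 41.1%). At that time 9 were higher and 0 lower in Nrf1KO than in WT cells by edgeR (35.6% and 36.4% of all genes), the 1 other not passing. Crem, which encodes a CRE-binding factor, rose by 2.15 ± 0.094 in WT and 2.68 ± 0.089 in Nrf1KO cells at 24 h, and the kinase gene Sgk1 by 2.04 ± 0.044 and 1.41 ± 0.04. Fos was -1.07 ± 0.28 in WT and 1.41 ± 0.23 in Nrf1KO cells at 24 h. These Fos values rest on few reads, with 8 to 13 per library in WT at 24 h and 12 to 19 in Nrf1KO DMSO. Tsc22d3, a glucocorticoid target, was -0.75 ± 0.048 in WT and 0.68 ± 0.045 in Nrf1KO cells at 24 h. Fkbp5, another glucocorticoid target, fell at 24 h by 1.48 in WT and 0.98 in Nrf1KO cells on the log2 scale. Egr1 fell by 1.33 and 0.68 and Sik1 by 1.20 and 0.33 at that time. At 6 h the mean of Fkbp5 was also below DMSO in both lines, whereas those of Egr1, Sik1 and Tsc22d3 were above it. Egr1 went from 18.8 CPM in DMSO to 30.8 CPM at 6 h in WT and from 25.8 to 46.6 CPM in Nrf1KO cells. Tsc22d3 went from 84.5 to 127.9 CPM and from 58.35 to 141.9 CPM.

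All 6 clock-controlled output genes were tested, and at 24 h 2 rose and 4 fell in WT cells (43.2% and 40.5% of all genes) and 3 rose and 3 fell in Nrf1KO cells (44.4% and 41.1%). At 6 h 3 rose and 2 fell in WT (35.6% and 36.2% of all genes), and 2 rose and 2 fell in Nrf1KO cells (34.5% and 35%). Wee1, a kinase gene that holds cells before mitosis, fell by 1.61 in WT and 1.88 in Nrf1KO cells on the log2 scale at 24 h, Tspo by 1.40 and 2.26, and Klf10 by 0.96 and 1.43. Noct, listed as Ccrn4l, rose by 1.14 ± 0.12 and 1.42 ± 0.11 at 24 h. Klf10 had gone the other way at 6 h, from a mean of 39.8 CPM in DMSO to 51.0 CPM in WT and from 48.1 to 73.9 CPM in Nrf1KO cells.

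The genes whose log2 CPM followed each clock gene most closely over the 18 libraries were found by Pearson's r, which is given as a description because the libraries share groups. For Dbp they were Zfp651 (r = 0.992), Hmgb1 and Lsm2 (0.990 each), and for Per3 Eml1 (0.994), E2f8 (0.994) and Ankrd27 (0.992). For Per1 they were Mras (0.992), Calcoco1 (0.984) and Hbp1 (0.982), for Per2 Tyms (0.978), Rcn3 (0.977) and Mvd (0.977), and for Cry1 Nob1 (0.988), Zfp384 (0.982) and Vegfa (0.979). For Cry2 they were Vps13a, Prkab2 (0.973 each) and Nbas (0.972), and for Clock B4galt3 (0.982) and Slc25a37 (0.977). The likeness was weaker for Arntl, with Dnpep (0.954), Pik3r3 (0.935) and Dennd2a (0.931), for Nr1d1, with Arhgap22 (0.952), Xdh (0.935) and Abhd1 (0.92), and for Nr1d2, with Mrpl13 (0.903), Git2 (0.898) and Samd8 (0.896). No clock gene was among the 3 nearest genes of another.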

How the data were processed

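RNA-sequencing of 18 NIH-3T3 libraries was analysed, 3 in each of 6 groups named from the sample labels. The authors made stranded mRNA libraries and used RNA Express (STAR and DESeq2). They deposited raw counts of reads per gene symbol, without normalization. The genome build, annotation and use of strand in counting are not given in the sources used here. Counts were analysed in R 4.3.3 with edgeR 4.0.16: genes were filtered by filterByExpr (minimum count 10 and total 15), scaled by TMM and fitted in 1 quasi-likelihood model with a term for each of the 6 groups, and p-values were adjusted by Benjamini-Hochberg over 11762 genes. The test was tried on simulated counts in which few genes were changed, in the Nrf1KO 24 h group only. Most tested genes were called with CFZ in these data, so the trial does not speak to scaling here. The standard error is the log2 change divided by the square root of F. Correlations used log2 CPM with prior count 2, over genes with mean counts of 50 or more. Coordinates came from GENCODE M21 on GRCm38 and promoters from RefSeq, by symbol.

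Replicates varied little (common biological coefficient of variation 3.13%), and even small changes can pass. Replicate pairs differed by more than the noise of sampling (chi-square per degree of freedom of 1.438 or more), so none was counted as the same library read again. This measure cannot tell separate cultures from separate libraries of the same RNA. The paper calls the replicates biological.

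Named in the text are all 10 clock genes in every comparison, Nfe2l1, genes that overlap a clock gene, every tested factor of the other clock factors, members of the other lists called with an absolute log2 change of at least 1 in a comparison of CFZ with DMSO, and the 3 nearest genes by Pearson's r. Of the genes this rule takes in, 1 nearest gene of Clock is not reported here. The genes and lists were chosen with earlier results of these data known. Results were recomputed with DESeq2 1.42.0, with scaling by upper quartile or by library size alone, with other filters on low counts (none, or a mean of at least 10), with a fit restricted to the groups being compared, with a replicate block, without single libraries, and with a minimum fold of 2.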

Additional observations from a re-analysis of the deposited data

Results flagged for a closer look

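Differences between the lines in the change from DMSO to CFZ were found for clock genes by the interaction term of edgeR's quasi-likelihood model. In this term the log2 change with CFZ in WT cells is taken from that in Nrf1KO cells, and DMSO has no labelled time. Of all genes tested 19.8% had a higher and 18.4% a lower interaction at 6 h, and 29.7% and 30% at 24 h. At 6 h the clock genes called were Per3 (0.382, adjusted p = 0.00011) and Dbp (0.472, 0.0026). For both, all 3 libraries of 6 h CFZ lay below all DMSO libraries of the same line, and the fall was smaller in Nrf1KO cells.

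At 24 h the interaction was positive for Cry1 (0.793, adjusted p = 5.4e-11), Arntl (0.509, 3.1e-05) and Per1 (0.303, 0.00017). It was negative for Nr1d1 (-1.14, 8.4e-13), Nr1d2 (-0.59, 2.2e-11), Cry2 (-0.326, 0.00081) and Per3 (-0.318, 0.0065). Nr1d2 was the clock gene whose change was called in opposite directions in the lines with no overlap between CFZ and DMSO libraries in either. For Nr1d1 the Nrf1KO libraries at 24 h and in DMSO overlapped. Per3 passed in opposite directions at the 2 times.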

How the results depend on the processing

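Of 2750 log2 changes of the 10 clock genes recomputed under 25 alternatives, 2637 kept their direction and their side of the threshold, 63 lost the call, 13 gained it and 37 changed sign, each of them a value that had not been called. The counts of clock genes called that moved by more than 1.5 times were the following, other counts moved by at most 1 gene, and the cause was not tested unless the setting itself is the cause. With a minimum fold of 2, the counts higher and lower than DMSO were 0 and 1 in WT at 6 h, 0 higher in WT at 24 h, 0 and 1 in Nrf1KO at 6 h, and 1 and 2 in Nrf1KO at 24 h. Between 6 and 24 h they were 1 and 2 in WT and 1 and 3 in Nrf1KO cells. Between the lines they were 1 and 0 in DMSO, 2 and 0 at 6 h and 0 and 0 at 24 h, and in the interactions 0 higher at 6 h and 0 and 1 at 24 h. The share of all genes at this limit was not worked out, so these counts have no base to be read against. The clock genes higher in Nrf1KO cells at 6 h as compared with DMSO were 3 with upper-quartile scaling or library size alone, and those lower in Nrf1KO than in WT cells at 24 h were 1 with DESeq2 or upper-quartile scaling and 1 to 3 with 1 library left out (1 without WT 24 h replicate 2, Nrf1KO 24 h replicate 1 or Nrf1KO 24 h replicate 2).

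The log2 values that changed sign were the following. Per2 in WT cells at 6 h was -0.061 with upper-quartile scaling, -0.084 with library size alone and -0.0058 to 0.084 with 1 library left out. Per1 between the lines in DMSO was 0.024 with library size alone and -0.047 to 0.0060 with 1 library left out, and Cry1 between the lines at 6 h was 0.012 with library size alone. Between the lines at 24 h Arntl was -0.0086 to 0.089 and Nr1d1 -0.12 to 0.039 with 1 library left out. In the interaction at 6 h Cry2 was -0.00080 with DESeq2, -0.020 without expression filter, -0.012 with the replicate block and -0.046 to 0.052 with 1 library left out. Arntl there was -0.12 to 0.040 with 1 library left out, and Clock was 0.021 with upper-quartile scaling, 0.0060 with library size alone and -0.065 to 0.025 with 1 library left out. In the interaction at 24 h Per2 was -0.15 to 0.022 with 1 library left out, and Clock was 0.023 with upper-quartile scaling, 0.00081 without expression filter and -0.058 to 0.022 with 1 library left out.

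Library size alone moved the median log2 change of all genes to -0.15 in WT and -0.12 in Nrf1KO cells at 6 h and to -0.15 in Nrf1KO cells at 24 h, and upper-quartile scaling to -0.13 in WT at 6 h and -0.11 in WT at 24 h. With library size alone 3087 genes were called higher and 5623 lower in WT at 6 h in place of 4190 and 4262 (3274 and 5373 with upper-quartile scaling), 3036 and 5298 in Nrf1KO at 6 h in place of 4057 and 4114, and 4175 and 5857 in Nrf1KO at 24 h in place of 5226 and 4829. Between the lines they were 3635 and 2663 in DMSO in place of 3017 and 3419, and 4384 and 2829 at 6 h in place of 3593 and 3621. The libraries share only a replicate number: for the 45 pairs with equal numbers, deviations from the group mean correlated at -0.049 to 0.097 (mean 0.014), so the numbers were not taken as pairs. With the replicate block 6 clock genes were higher in WT at 24 h in place of 7, the lost call being Arntl (0.14, adjusted p = 0.052), and no other call of a clock gene changed. Depth limits Dbp at 24 h, with 11 to 33 reads per library.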
